A study of Rattus norvegicus with 2 samples.

Results

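The repressors and output genes of the circadian clock were compared in rat esophagus after treatment with OSU-HDAC42, an inhibitor of histone deacetylases (HDACs), and after vehicle. The 10 genes are Per1, Per2, Per3, Dbp, Tef, Hlf, Nr1d1, Nr1d2, Bhlhe40 and Bhlhe41, and they were chosen by name as one functional class, after the differences between these same arrays had been seen. All probe sets that the platform annotation ties to a single gene of that name were used, which gave 19 probe sets for the 10 genes, out of 20826 such probe sets for 14217 genes on the Affymetrix rat array. The OSU-HDAC42 group was male Sprague-Dawley rats, an outbred strain without a stated transgene or deletion, bought at 5 to 6 weeks of age and given 7 doses of 50 mg/kg by gavage for a total of 350 mg/kg. The vehicle group was male rats of the same strain and age given vehicle by gavage on the same schedule. The esophagus was collected on day 15, which was 24 hours after dosing ended. Each group had 1 array, and the labels do not say how many rats an array stood for or at what hour of the day tissue was taken. The deposited intensity of each probe set is linear, and how the arrays were scaled to each other is not given in the sources used here. Without replicates, the spread between rats is unknown and no difference has a p-value.

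The circadian clock is a feedback loop of transcription. The activators CLOCK, or its relative NPAS2, and BMAL1 bind the E-box, a short DNA element, and switch on the genes of their own repressors, among them Per1, Per2 and Per3, and of output factors such as Dbp. REV-ERB proteins, encoded by Nr1d1 and Nr1d2, repress Bmal1 through ROR elements and do so with the corepressor NCoR and the deacetylase HDAC3, while Dbp, Tef and Hlf act on a further element, the D-box. In peripheral tissues Bmal1 and the genes driven through E-boxes usually peak at opposite times of day.

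All 10 genes were lower in the OSU-HDAC42 sample, as were 52.8% of all genes with usable signal. Dbp, Per2, Bhlhe41 and Per3 were lower by 3.89-fold, 3.60-fold, 2.87-fold and 2.51-fold on their brightest probe sets, and the other 6 were 1.26-fold to 1.87-fold lower. The median difference of the 10 genes was -0.78 on the log2 scale (1.72-fold lower), beside -0.027 over the 9560 genes above an expression floor, an intensity of 49.1 that at least 1 array had to reach. A gene counts as 2-fold lower here when its difference reached -1 on the log2 scale and it passed that floor. This held for 4 of the 10 genes, against 3.17% of all genes above the floor. At 1.5-fold it held for 7 of the 10, against 10.9% of all genes, and at 3-fold for 2 of the 10, against 0.596%. No member was 2-fold higher, against 1.88% of all genes. Because the genes were chosen with these results known, these counts describe the genes and test nothing.

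All probe sets with usable signal gave the same direction. Of the 19, 15 were above the floor on both arrays and all 15 were lower in the OSU-HDAC42 sample, and so no gene passed the floor through its vehicle value alone. Of these 15, 4 were 2-fold lower, against 2.81% of all named probe sets above the floor. The remaining 4, probe sets of Per3, Tef, Hlf and Nr1d2, were below the floor on both arrays. Their deposited intensities were lower too, as for 46.4% of all 20826 named probe sets, but at that signal the direction carries little weight. Intensities of different probe sets depend on the probes, so levels are compared between arrays and never between genes.

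**Figure D1:**
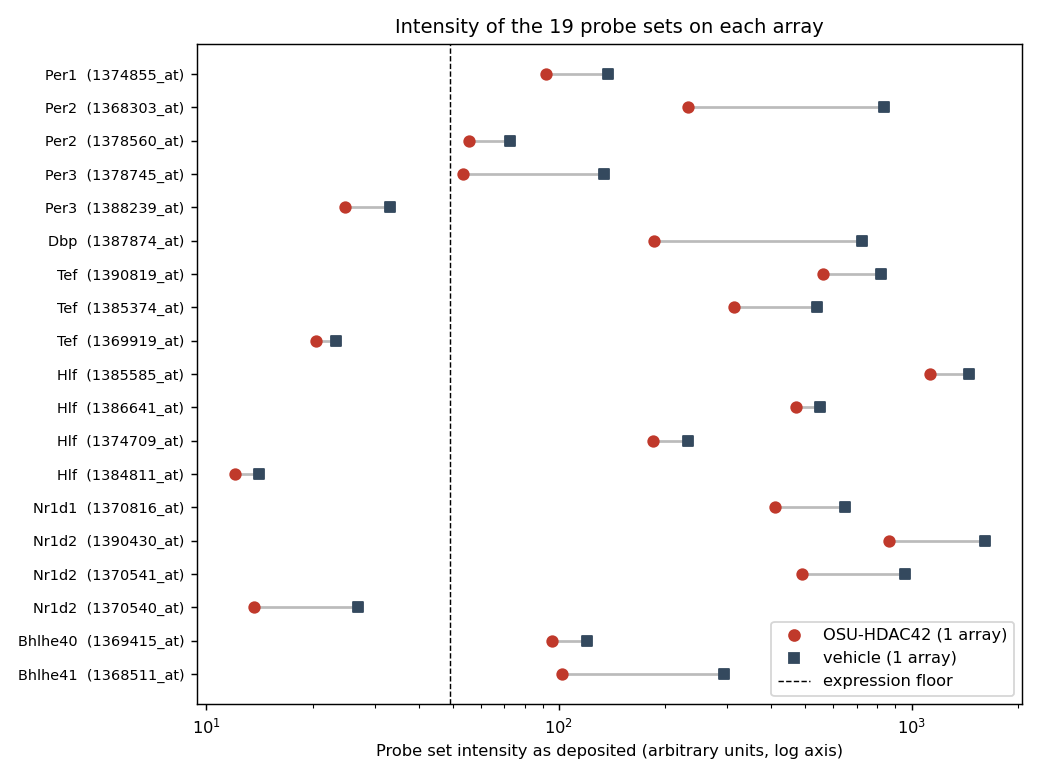
Intensity of each of the 19 probe sets of the 10 genes in the OSU-HDAC42 sample (circles) and the vehicle sample (squares), as deposited, in arbitrary units on a log axis, with the expression floor of 49.1 as a dashed line. Every circle lies left of its square, with the widest gaps for Dbp and for the brighter probe set of Per2.

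The period genes encode the PER proteins, which bind cryptochromes and shut off CLOCK and BMAL1. On its brighter probe set, Per2 stood at 233 in the OSU-HDAC42 sample and 838 in the vehicle sample, a log2 difference of -1.85. Its dimmer probe set stood at 55.4 in the OSU-HDAC42 sample and 72.7 in the vehicle sample, a difference of only -0.39. Both probe sets put Per2 lower in the OSU-HDAC42 sample, but the size of the difference rests on the brighter one. The gap between them, 1.46 on the log2 scale, was unusual for the array, since a gap of that size or more was found in 0.412% of 3643 pairs of probe sets that measure the same gene above the floor. Those pairs are the only measure of error in the files, and they cover probe noise, not rats.

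Per3, the period gene least needed for rhythm in mice, stood at 53.5 in the OSU-HDAC42 sample and 134 in the vehicle sample on its brighter probe set, a difference of -1.33. Its dimmer probe set stood at 24.7 in the OSU-HDAC42 sample and 33.3 in the vehicle sample, below the floor on both. With the median of both probe sets taken in place of the brighter one, Per3 differed by -0.88 and no longer counted as 2-fold lower. Per1, which responds quickly to hormones and to cAMP as well as to the clock, had a single probe set at 91.6 in the OSU-HDAC42 sample and 138 in the vehicle sample, a difference of -0.59. Per1 thus kept 66.6% of its vehicle intensity, Per3 39.8% and Per2 27.8%. The gap between Per2 and Per1 was 1.26 on the log2 scale, a size found in 0.878% of same-gene probe set pairs, and that between Per2 and Per3 was 0.52, found in 16.2%. Both gaps rest on the brighter probe set of Per2, and on its dimmer one Per2 (-0.39) was less lowered than Per1 (-0.59).

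Dbp, Tef and Hlf form the PAR bZIP family, whose proteins bind the D-box and drive genes of detoxification and metabolism. Dbp, an output gene that swings widely over the day in many tissues, had a single probe set at 186 in the OSU-HDAC42 sample and 725 in the vehicle sample. Its difference of -1.96 was the largest of the 10 genes and ranked 14 from the lowest among the 9560 genes above the floor. Per2 ranked 25, Bhlhe41 74 and Per3 112 in the same order.

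On its brightest probe set, Tef stood at 562 in the OSU-HDAC42 sample and 821 in the vehicle sample, a difference of -0.55. Its next probe set stood at 313 in the OSU-HDAC42 sample and 540 in the vehicle sample, a difference of -0.79, so these probe sets were close. Its remaining, dim probe set stood at 20.4 in the OSU-HDAC42 sample and 23.4 in the vehicle sample. Hlf had 3 probe sets above the floor, with differences of -0.37, -0.33 and -0.23, which lie close together. The brightest of them stood at 1127 in the OSU-HDAC42 sample and 1459 in the vehicle sample. The family members therefore differed in size, with Dbp lower than Tef by a further 1.41 and than Hlf by a further 1.59 on the log2 scale. Gaps of those sizes were found in 0.439% and 0.329% of same-gene probe set pairs. Tef and Hlf were 0.17 apart, a size found in 59.2% of such pairs.

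Nr1d1 and Nr1d2 encode REV-ERB alpha and beta, nuclear receptors that act as repressors. Nr1d2 stood at 863 in the OSU-HDAC42 sample and 1615 in the vehicle sample on its brightest probe set. Its next probe set stood at 490 in the OSU-HDAC42 sample and 959 in the vehicle sample. Their differences, -0.90 and -0.97, were 0.065 apart and both fell just short of 2-fold. The remaining probe set of Nr1d2 stood at 13.7 in the OSU-HDAC42 sample and 26.9 in the vehicle sample, below the floor on both arrays. Nr1d1 had a single probe set at 411 in the OSU-HDAC42 sample and 647 in the vehicle sample, a difference of -0.65. The receptors were 0.25 apart on the log2 scale, a gap found in 45.4% of same-gene pairs.

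Nr1d1 shares its locus with Thra, the gene of thyroid hormone receptor alpha, which is transcribed from the opposite strand, and the genes overlap in the RefSeq annotation. Thra was higher in the OSU-HDAC42 sample, at 88.1 against 58.6 in the vehicle sample on its brightest probe set, a difference of 0.59. Its second probe set stood at 72.6 in the OSU-HDAC42 sample and 40.9 in the vehicle sample. That probe set passed the floor in the OSU-HDAC42 sample alone, which fixed its direction. By the brightest probe set of Thra, above the floor on both arrays, the overlapping genes thus differed in opposite directions.

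Bhlhe40 and Bhlhe41 encode DEC1 and DEC2, which repress by binding E-boxes themselves. Bhlhe41 stood at 102 in the OSU-HDAC42 sample and 294 in the vehicle sample, a difference of -1.52. Bhlhe40, which many other signals such as low oxygen also switch on, stood at 95.7 in the OSU-HDAC42 sample and 120 in the vehicle sample, a difference of -0.33 and the smallest of the 10 genes. Each gene had 1 probe set. The gap between them, 1.19, was found in 1.02% of same-gene probe set pairs.

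**Figure D2:**
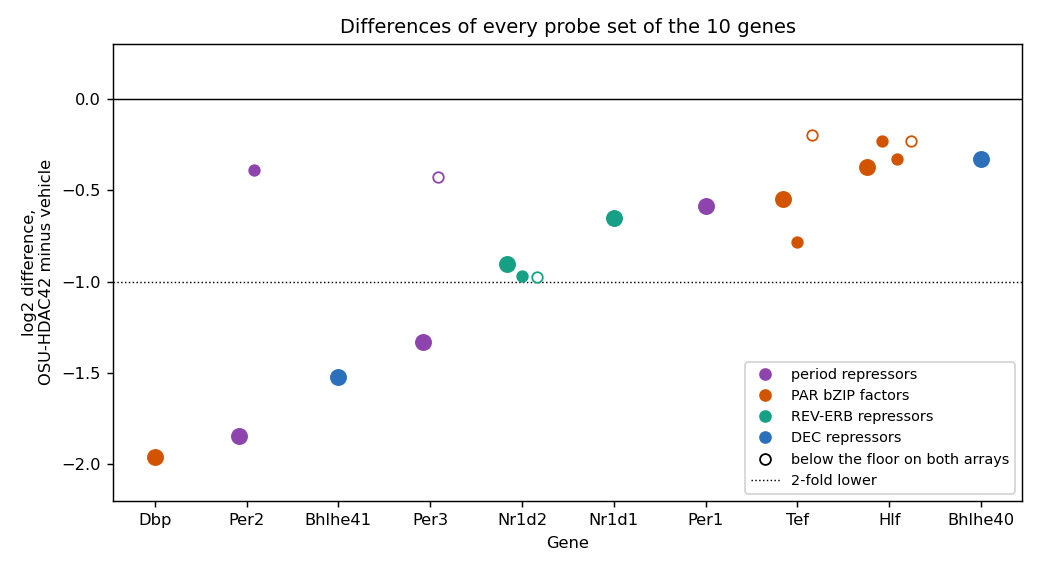
Log2 difference in deposited intensity, OSU-HDAC42 minus vehicle, for each probe set of the 10 genes, ordered by the brightest probe set (large points), with probe sets below the floor on both arrays shown open. All points lie below 0, and Dbp, Per2, Bhlhe41 and Per3 pass the dotted line of 2-fold lower on their brightest probe sets.

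Ordered by the difference of the brightest probe set, the genes ran from Dbp through Per2, Bhlhe41, Per3, Nr1d2, Nr1d1, Per1, Tef and Hlf to Bhlhe40. No neighbours in this order were set apart beyond probe noise. Gaps between neighbours were 0.040 to 0.43 on the log2 scale, and the widest, between Per3 and Nr1d2, was matched or exceeded in 23.1% of same-gene probe set pairs. Per3 and Nr1d2 were also the genes just inside and just outside the 2-fold threshold, at -1.33 and -0.90. The SD of the difference over all genes above the floor was 0.48. Among genes of like intensity, within 0.5 on the log2 scale of the member, it ran from 0.36 for genes as bright as Nr1d2 to 0.58 for genes as dim as Per3. For Bhlhe40 the difference of -0.33 was smaller in size than the SD of 0.56 among genes of its intensity. Per1, at -0.59, and Hlf, at -0.37, barely exceeded the SDs at their intensities, 0.56 and 0.36.

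**Figure D3:**
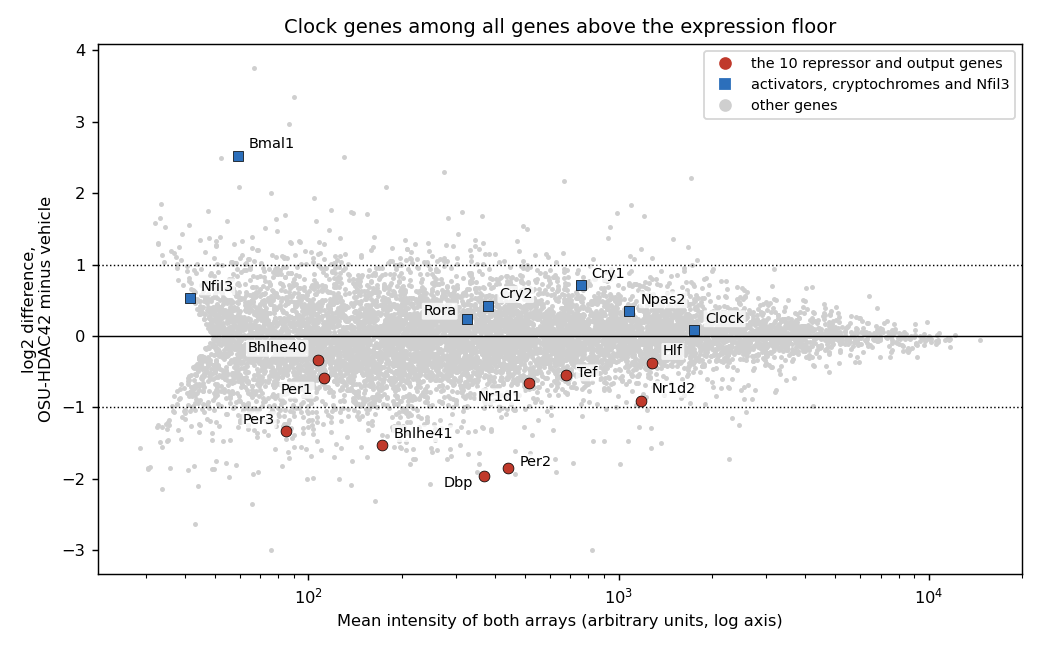
Log2 difference, OSU-HDAC42 minus vehicle, against the mean intensity of both arrays (log axis) for the 9560 genes above the floor, with the 10 repressor and output genes as circles and the activators, cryptochromes and Nfil3 as squares. All circles lie below 0 and all squares above it, with Dbp at -1.96 and Bmal1 at 2.53, and Bmal1 and Nfil3 passed the floor in the OSU-HDAC42 sample alone.

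The promoter sequences are shown because the group was drawn up as clock repressors and E-box or D-box outputs. RefSeq promoters of the GRCr8 rat assembly, from 250 bases before to 50 bases after the start of transcription, were at hand for 9 of the 10 genes, with 2 start sites for Nr1d1. Hlf had no entry. Searched on both strands were the E-box CACGTG, the variant called E'-box CACGTT, the D-box TTATGNAA, the ROR element letters TAGGTCA and TGGGTCA, and the cAMP element TGACGTCA. An E-box or E'-box was found for 5 of the 9 genes, in 6 of their 10 promoters, and in 10.9% of all 33469 promoters. The genes are known for this element, so the share is no finding about them. Per2 held an E'-box 62 bases before the start and a D-box 192 bases before it, and D-box letters stood in 3.66% of all promoters. Each sequence runs 5′ to 3′ on the gene's strand, with its matches in capitals. In the window of the upstream start site of Nr1d1 the capitals are an E'-box on the opposite strand.
Per2, chr9:99496944-99497243, minus strand: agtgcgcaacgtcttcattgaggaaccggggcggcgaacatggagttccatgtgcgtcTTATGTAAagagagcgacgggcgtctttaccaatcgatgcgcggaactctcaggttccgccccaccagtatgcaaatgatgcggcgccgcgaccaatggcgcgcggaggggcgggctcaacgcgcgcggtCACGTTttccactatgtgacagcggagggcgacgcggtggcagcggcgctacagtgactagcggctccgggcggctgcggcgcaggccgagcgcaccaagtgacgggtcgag
Bhlhe41, chr4:180569348-180569453, minus strand: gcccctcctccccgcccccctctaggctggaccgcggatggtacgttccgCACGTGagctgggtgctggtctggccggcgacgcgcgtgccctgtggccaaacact
Bhlhe40, chr4:143174200-143174285, plus strand: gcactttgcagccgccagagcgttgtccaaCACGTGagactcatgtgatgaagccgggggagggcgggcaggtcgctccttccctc
Tef, chr7:115206579-115206684, plus strand: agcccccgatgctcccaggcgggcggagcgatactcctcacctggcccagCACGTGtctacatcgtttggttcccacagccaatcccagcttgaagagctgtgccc
Nr1d1, upstream start, chr10:84231931-84232036, minus strand: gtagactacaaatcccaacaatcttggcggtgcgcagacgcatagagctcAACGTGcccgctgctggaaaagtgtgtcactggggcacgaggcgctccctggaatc
Nr1d1, downstream start, chr10:84229590-84229695, minus strand: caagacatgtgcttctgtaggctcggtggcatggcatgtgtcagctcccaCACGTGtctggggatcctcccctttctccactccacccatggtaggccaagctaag
Bmal1, chr1:176766262-176766368, plus strand: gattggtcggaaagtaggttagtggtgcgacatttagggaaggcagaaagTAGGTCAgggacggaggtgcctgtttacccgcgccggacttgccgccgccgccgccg
Bmal1, the gene that REV-ERB proteins repress, is shown for contrast. Its capitals mark TAGGTCA, 16 bases before the start, letters found in 2.63% of all promoters. The promoters of Per1, Per3, Dbp and Nr1d2 held none of the letters searched in this window, which says nothing of elements elsewhere in these genes. Bhlhe41 and Bhlhe40 both hold CACGTG and differed by -1.52 and -0.33. Whether an E-box goes with the size of a difference was not tested.

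The activators, the cryptochromes and Nfil3, where above the floor, lay on the opposite side of 0 on their brightest probe sets. Of the activators and of the cryptochromes with Nfil3, all 7 genes above the floor were higher after OSU-HDAC42 (median 0.42), where 46.7% of all genes above the floor were higher at any size. For Bmal1 and Nfil3 the floor itself fixed that direction, since only their OSU-HDAC42 intensity passed it. The other 5 passed it on both arrays, and all 5 were higher, with a median of 0.35. Bmal1 stood at 143 in the OSU-HDAC42 sample and 24.7 in the vehicle sample, and the fold of 5.76 is uncertain because the vehicle intensity lies below the floor. Differences of the others among these genes were smaller, with Clock at 0.085 on its brightest probe set and -0.011 on the next. A dimmer probe set of Clock, also above the floor on both arrays, differed by 0.53. Npas2 differed by 0.35 and the nuclear receptor Rora, an activator of Bmal1, by 0.24. Cry1, a partner of the PER proteins that peaks later than they do, stood at 967 in the OSU-HDAC42 sample and 591 in the vehicle sample, a difference of 0.71, and Cry2 differed by 0.42. Nfil3, which competes with Dbp, Tef and Hlf for the D-box, stood at 49.7 in the OSU-HDAC42 sample and 34.4 in the vehicle sample, just above the floor in the OSU-HDAC42 sample and below it in the vehicle sample. The repressors therefore did not all go one way, since the cryptochromes were higher where the period genes were lower.

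Kinases and ubiquitin enzymes that act on PER and cryptochrome proteins did not share a direction. On the brightest probe set of each, 4 of 7 were lower and 3 higher and none by 2-fold, with a median of -0.078. Csnk1e, a casein kinase that phosphorylates PER, differed by -0.42, Gsk3b by 0.33, and the ubiquitin ligase parts Fbxw11 and Btrc by 0.51 and -0.14. Another probe set of Btrc stood at 41.8 in the OSU-HDAC42 sample and 98.0 in the vehicle sample, a difference of -1.23. It passed the floor in the vehicle sample alone, which fixed its direction and leaves the size uncertain. With the median over the probe sets of each gene, the median of this list was 0.025 and so changed its sign.

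Of the corepressors that PER and REV-ERB proteins use, 7 of 9 were higher and 2 lower on their brightest probe sets, where 46.7% of all genes above the floor were higher. Their median was 0.20, and none reached 2-fold on that probe set. Hdac3, the deacetylase that works with REV-ERB and a member of the drug's target family, stood at 224 in the OSU-HDAC42 sample and 177 in the vehicle sample, a difference of 0.34. Tbl1xr1, a part of the NCoR complex, differed by 0.29, its partner Gps2 by -0.42 and Hdac1 by 0.27. Dimmer probe sets of Hdac1 and Tbl1xr1 did pass 2-fold, at 1.26 and 1.22. That of Tbl1xr1 passed the floor in the OSU-HDAC42 sample alone, which fixed its direction.

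Of 10 further output genes of the clock, 7 were lower, 2 higher and 1 equal on both arrays, none at 2-fold, where 52.8% of all genes above the floor were lower. Their median was -0.24. A dim gene among the lower ones stood at 44.2 in the OSU-HDAC42 sample and 60.7 in the vehicle sample. It passed the floor in the vehicle sample alone, which fixed its direction. Alas1, the rate-limiting enzyme of heme synthesis and a target of the PAR bZIP factors in mouse liver, stood at 478 in the OSU-HDAC42 sample and 766 in the vehicle sample, a difference of -0.68. Nampt, which makes the precursor of NAD and is driven through E-boxes, stood at 867 in the OSU-HDAC42 sample and 1348 in the vehicle sample, a difference of -0.64. Por, the electron donor of cytochrome P450 enzymes, differed by -0.49 on its brighter probe set and by 0.32 on the other. Lpin1, a phosphatidate phosphatase, went the other way at 0.56.

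Genes that cAMP, glucocorticoids or growth signals induce quickly, as they do Per1, were mixed. Higher were 4 and lower 2 of the 6 with usable signal. The median was 0.19, and none reached 2-fold on its brightest probe set. Crem, a cAMP-responsive regulator, stood at 102 in the OSU-HDAC42 sample and 193 in the vehicle sample, a difference of -0.93. Fkbp5, a chaperone induced by glucocorticoids, differed by 0.87, the immediate early gene Fos by 0.50 and the kinase Sik1 by 0.35. By the brightest probe sets Per1, at -0.59, lay between Crem and the others. A dimmer probe set of Crem, above the floor on both arrays, differed by only -0.24, less than Per1.

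**Figure D4:**
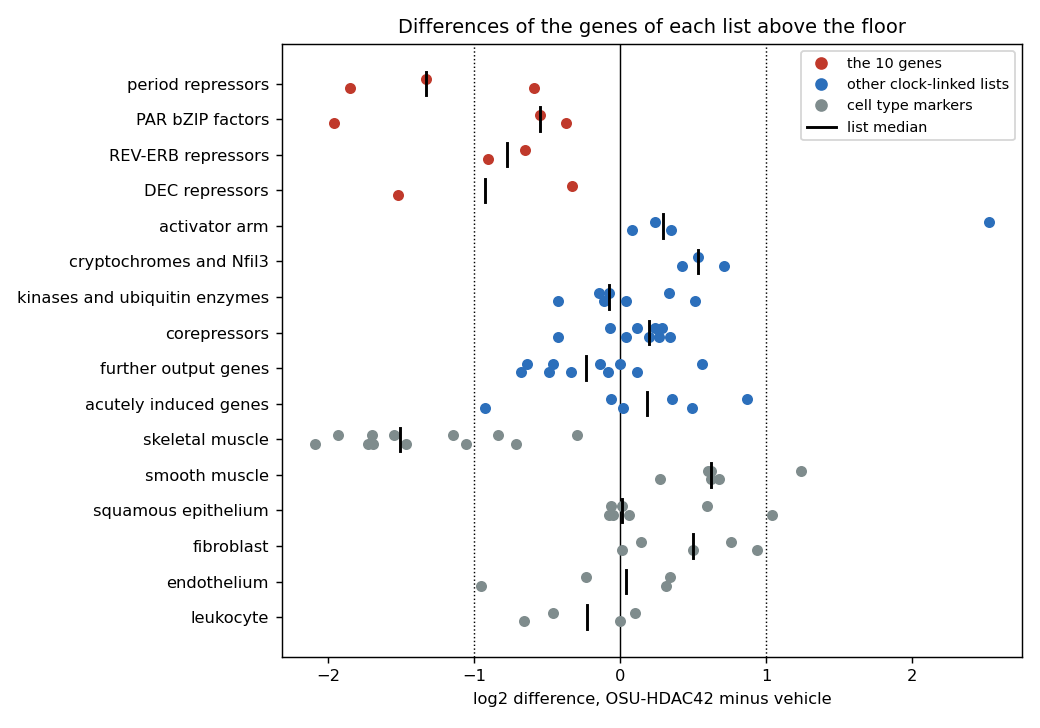
Log2 difference, OSU-HDAC42 minus vehicle, of each gene above the floor (points, 1 brightest probe set a gene) in the 4 groups of repressor and output genes, in 6 other clock-linked lists and in markers of 6 cell types, with list medians as bars. The 10 genes lie between -1.96 and -0.33, the activators, cryptochromes and Nfil3 lie above 0, where Bmal1 and Nfil3 passed the floor in the OSU-HDAC42 sample alone, and the skeletal muscle markers lie between -2.09 and -0.29.

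Markers of some cell types differed between the samples as well. All 12 skeletal muscle markers were lower in the OSU-HDAC42 sample, 9 of them by 2-fold. Of all genes above the floor, 52.8% were lower and 3.17% were 2-fold lower. The fast-fibre actinin Actn3 was lowest at -2.09. The summed intensity of the skeletal muscle markers was 9560 in the OSU-HDAC42 sample and 18498 in the vehicle sample. All 6 smooth muscle markers were higher, Tagln most at 1.24, with sums of 10746 in the OSU-HDAC42 sample and 6835 in the vehicle sample. All 5 fibroblast markers were higher too, where 46.7% of all genes above the floor were higher. Their differences ran from only 0.011 for Col3a1 to 0.94 for Pdgfra, with a median of 0.50. The 7 measured markers of squamous epithelium, the lining of the esophagus, were all above the floor and had sums of 50017 in the OSU-HDAC42 sample and 50647 in the vehicle sample. Very bright genes such as Krt13 carry those sums, and the suprabasal keratin Krt10 was 2.06-fold higher and the envelope protein Ivl 1.51-fold higher. Markers of gastric glands, thyroid and cartilage were under 16 on both arrays for all 7 genes measured. Endothelial and leukocyte markers had medians of 0.041 and -0.23 over 4 genes each, and 3 of 4 adipocyte markers were under 16 on both arrays. The endothelial markers ran from -0.95 for Vwf to 0.34 for Kdr, and the leukocyte markers from -0.66 for Cd74 to 0.10 for Ptprc. The remaining adipocyte marker, Fabp4, differed by -0.70. Fewer cells of a type and less RNA per cell cannot be told apart in bulk tissue, and the part of these marker differences in the lower repressor and output genes was not tested.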

How the data were processed

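Esophageal RNA of the OSU-HDAC42 and vehicle groups was measured on 1 array each. The deposited probe set intensities are linear, as read from their values. Per the submitters' processing notes the tools were GCOS and RMA, with no role or version stated, and the build behind the annotation is not given in the sources used here. A lower limit of 16 was set on intensities before the log2 transform, and no normalization was added. The 57 control probe sets, 436 with several gene symbols and 9780 with none were left out. A gene's value came from its brightest probe set, by the log2 mean over the arrays. The expression floor was the median of those means over 31042 probe sets. Differences are OSU-HDAC42 minus vehicle. The genes named are the 10 members with every probe set and, of each other clock-linked list, those 2-fold different and further ones up to 4, by size of difference. The members and lists were chosen with earlier results of these data known. Of 51 genes on the other clock-linked lists 43 were measured. Alternatives changed the raising of low values, the scaling, the probe set, the floor and the fold threshold. The number of arrays limits the precision. Python 3.11.15, pandas 2.3.3 and statsmodels 0.14.6 were used.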

Additional observations from a re-analysis of the deposited data

How the results depend on the processing

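All 10 genes were lower in the OSU-HDAC42 sample under each scaling, raised-value and probe set alternative, with Dbp between -1.97 and -1.94 and Bhlhe40 between -0.33 and -0.30. With the median over probe sets, Per2 differed by -1.12 and Per3 by -0.88, so 3 of the 10 genes counted as 2-fold lower, and the list of kinases and ubiquitin ligases had a median of 0.025, because dimmer probe sets entered. By construction the threshold gave 7 of the 10 genes at 1.5-fold and 2 at 3-fold. Over all genes it gave 1042 lower and 725 higher at 1.5-fold and 57 lower and 31 higher at 3-fold, and a floor at the 75th percentile left 119 lower and 75 higher. At that floor 7 of the 10 genes were above it, and 3 counted as 2-fold lower. In all, 131 alternative values stayed close to the reported ones, 10 moved and 1 reversed. No paired analysis was possible because there was only 1 array per group. Low signal leaves 4 of the 19 probe sets without a usable difference.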
